A study of Mus musculus with 10 samples.

Results

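The genes described here are *Pcp4*, *Zbtb20*, *1500009L16Rik*, *Lgi2*, *Prdm6*, *Fzd5* and *Me3*, 7 of the 32285 genes counted in single cells of the developing mouse jaw and lower incisor. They were chosen for their high RNA level in those epithelial cells of E16.5 (embryonic day) that were rich in *Sox2* RNA, and in part for a difference between E14.5 and E16.5 epithelium. The values of these contrasts are therefore given as a description of the choice. The relation to *Sox2* within E14.5 epithelium was not itself part of the choice. A choice in part for higher levels at E16.5 does, however, favour genes with few UMIs at E14.5.

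All embryos were wild type, from mice that the methods name as NMRI. The tissue was the whole mandible at E11.5 and the lower incisor bud at both later stages, although the labels call all of it developing incisor, and it was dissociated with Collagenase P. There are 4, 4 and 2 labelled samples at the 3 stages in order, and the methods state 8, 4 and 2 mandibles from 3, 3 and 2 litters. The counts were made by the authors from 10x Genomics 3' libraries and deposited as 1 matrix per stage, with nothing to tie a barcode to a labelled sample. A stage therefore counts as 1 sample here, no test between stages or groups of cells was made, and stage and sample cannot be told apart.

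The mouse incisor grows throughout life from epithelial stem cells that lie in the cervical loop, an epithelial fold at the base of the tooth. The transcription factor Sox2 marks these cells and the wider dental epithelium from which they arise. The 7 genes belong to unrelated families. Frizzled 5, encoded by *Fzd5*, is a cell surface receptor for Wnt ligands. *Lgi2* encodes a secreted leucine-rich repeat protein of the LGI family, whose members bind ADAM22 and related receptors. Zbtb20 is a transcriptional repressor with a BTB domain and zinc fingers, and Prdm6 is a nuclear protein with a PR domain that is known from smooth muscle. Pcp4 is a small protein that binds calmodulin and alters its exchange of calcium. *Me3* encodes a mitochondrial malic enzyme that turns malate into pyruvate and makes NADPH. *1500009L16Rik* encodes a protein of poorly known function.

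The 7 genes lie on 6 chromosomes. In GRCm38 (GENCODE annotation), *Pcp4* (ENSMUSG00000090223) spans chr16:96467606-96525793 and *Zbtb20* (ENSMUSG00000022708) spans chr16:42875881-43642602, both on the plus strand. *1500009L16Rik* (ENSMUSG00000087651) spans chr10:83722865-83762762 and *Me3* (ENSMUSG00000030621) spans chr7:89632392-89854359, also on the plus strand. *Lgi2* (ENSMUSG00000039252) spans chr5:52533517-52566462 and *Fzd5* (ENSMUSG00000045005) spans chr1:64730558-64737751, both on the minus strand. *Prdm6* is not given by position here. All 6 genes given by position are annotated as protein coding, and they range from 7.19 kb (*Fzd5*) to 767 kb (*Zbtb20*) in length.

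The promoters of *Pcp4*, *1500009L16Rik* and *Fzd5* are shown because their RefSeq transcription start lies within 1 base of the annotated start of the gene, and because their base composition differs widely. Each line holds the 250 bases upstream of the start, 5′ to 3′ on the strand of the gene, from RefSeq on GRCm38.p6. Capitals mark the core of a SOX factor site (ACAAT or its reverse complement ATTGT) and a GC box (GGGCGG or CCGCCC). The windows are chr16:96467356-96467605 (plus strand) for *Pcp4*, chr10:83722615-83722864 (plus strand) for *1500009L16Rik* and chr1:64737751-64738000 (minus strand) for *Fzd5*.
Pcp4: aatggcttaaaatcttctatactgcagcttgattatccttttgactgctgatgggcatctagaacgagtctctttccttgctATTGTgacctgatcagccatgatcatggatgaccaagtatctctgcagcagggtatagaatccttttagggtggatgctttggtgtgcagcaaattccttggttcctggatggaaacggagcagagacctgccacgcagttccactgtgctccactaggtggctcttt
1500009L16Rik: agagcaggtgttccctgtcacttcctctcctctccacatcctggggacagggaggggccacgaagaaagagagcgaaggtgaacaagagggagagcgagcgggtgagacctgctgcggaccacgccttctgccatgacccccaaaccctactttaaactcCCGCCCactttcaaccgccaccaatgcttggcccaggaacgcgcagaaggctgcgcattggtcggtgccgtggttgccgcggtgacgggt
Fzd5: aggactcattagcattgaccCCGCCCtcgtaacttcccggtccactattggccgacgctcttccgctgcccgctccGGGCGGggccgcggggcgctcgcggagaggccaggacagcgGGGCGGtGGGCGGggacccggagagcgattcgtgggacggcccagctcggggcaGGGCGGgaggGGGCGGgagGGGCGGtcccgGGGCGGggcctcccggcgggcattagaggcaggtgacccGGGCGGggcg
The GC content of these windows was 46.8% for *Pcp4*, 61.6% for *1500009L16Rik* and 76.4% for *Fzd5*, against a median of 52.4% over 32817 mouse promoter windows of the same length. The SOX core was found in 27.7% of all windows, and among the 6 members with an entry it was found in *Pcp4* alone, 1 time, 168 bases upstream of the start. A GC box was found in 32.7% of all windows, 9 times in *Fzd5*, 2 times in *Lgi2* and 1 time in *1500009L16Rik*. The core of the TCF/LEF site (CTTTG or CAAAG), searched because Wnt signals reach the genome through TCF/LEF factors, was found in 48.6% of all windows and in those of *Pcp4*, *Lgi2* and *Me3*. TATAAA or TTTATA was found in 12.4% of all windows and in none of the 6 members. No match in the windows shown overlapped another, and a match is a description of these letters and not a known site.

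Of 8708, 8192 and 5719 barcodes at the 3 stages in order, 6573, 6091 and 4511 were kept as cells, those with 700 or more genes and no more than 20% mitochondrial UMIs. A UMI (unique molecular identifier) stands for 1 captured RNA molecule. Median depth was 5664, 3471 and 6260 UMIs per cell. Of the barcode sequences, 13 to 17 occurred in any pair of stages. Clusters named from marker lists gave 990 epithelial cells (16.3%) at E14.5. At E16.5 they gave 1754 (38.9%). None were named at E11.5, where only 11 cells passed a definition by epithelial markers. In these 11 cells *1500009L16Rik* had 14 UMIs, *Zbtb20* 7, *Lgi2* 4, *Fzd5* 1 and the other members 0, beside 50 of *Sox2*. All 10 epithelial markers were detected in the epithelium of either stage, and epithelium is reported from E14.5 on. Levels are given in CPM (counts per 1e6), the UMIs of a gene scaled by all UMIs of a group of cells. Values in parentheses are exact Poisson intervals for levels, exact binomial intervals for ratios of levels and Clopper-Pearson intervals for shares, all at 95%, and they cover counting error only. The UMIs count molecules from their 3' end and not per length, so levels are compared between groups of cells and not between genes. In a sum over cells, fewer cells with an RNA and less RNA per cell cannot be told apart.

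*Fzd5*, *Lgi2* and *Prdm6* were clearly higher in epithelium than in mesenchyme at E16.5, and less so or not at all at E14.5. *Fzd5*, the Wnt receptor, was at 5.76 CPM in E14.5 epithelium (4.11 to 7.84) and 23.4 in E16.5 epithelium (21.2 to 25.6). In mesenchyme it was at 1.08, 1.96 and 4.53 CPM at the 3 stages. Its level in epithelium was thus above that in mesenchyme at both stages, 2.94-fold at E14.5 (1.82 to 4.76) and 5.15-fold at E16.5 (4.07 to 6.59). *Lgi2*, the secreted ligand, was at 25.5 CPM in E14.5 epithelium (21.9 to 29.5) and 57.1 in E16.5 epithelium (53.8 to 60.6). Its mesenchymal level went the other way between these stages, from 20.2 CPM at E14.5 (18.1 to 22.4) to 12 at E16.5 (10.5 to 13.7), after 4.95 at E11.5. Epithelium was therefore 1.26-fold above mesenchyme at E14.5 (1.05 to 1.52) and 4.74-fold above it at E16.5 (4.10 to 5.50). *Prdm6* had 5 UMIs in E14.5 epithelium, 0.720 CPM (0.234 to 1.68), and 166 UMIs in E16.5 epithelium, 8.75 CPM (7.47 to 10.2). It stayed between 0.594 and 1.34 CPM in mesenchyme at the 3 stages, so that E16.5 epithelium stood 14.7-fold above E16.5 mesenchyme (8.03 to 30.1), whereas at E14.5 the ratio was 0.535 (0.160 to 1.43).

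*Pcp4* and *Zbtb20* were higher in mesenchyme than in epithelium at E16.5. *Pcp4*, the calmodulin regulator, was at 13.7 CPM in E14.5 epithelium (11.1 to 16.7) and 38.3 in E16.5 epithelium (35.6 to 41.2). Its mesenchymal level was 1.24 CPM at E11.5 (0.933 to 1.62), 11.1 at E14.5 (9.65 to 12.8) and 87.0 at E16.5 (82.8 to 91.3). The ratio of epithelium to mesenchyme was 1.23 at E14.5 (0.951 to 1.57), within counting error of 1, and 0.441 at E16.5 (0.403 to 0.481). *Zbtb20*, the repressor, was at 76.9 CPM in E14.5 epithelium (70.5 to 83.7) and 148 in E16.5 epithelium (143 to 154). In mesenchyme it was at 22.9, 56.2 and 186 CPM (179.8 to 192 at E16.5). Endothelium carried it too, at 54.7, 67.4 and 100.4 CPM at the 3 stages, whereas *Pcp4* had 0, 1 and 5 UMIs there. *Zbtb20* was thus spread over the lineages, and *Pcp4* was shared by epithelium and mesenchyme.

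*1500009L16Rik* was the member that was lower at E16.5. It was at 469 CPM in E14.5 epithelium (453 to 485) and 230 in E16.5 epithelium (223 to 237), a ratio of 0.491 (0.469 to 0.514). In mesenchyme it was at 78.4, 96.9 and 69.2 CPM at the 3 stages, so epithelium was 4.84-fold above mesenchyme at E14.5 (4.56 to 5.13) and 3.33-fold at E16.5 (3.12 to 3.54). *Me3*, the malic enzyme, was low in epithelium, with 17 UMIs at E14.5, 2.45 CPM (1.43 to 3.92), and 73 at E16.5, 3.85 CPM (3.02 to 4.84). Of mesenchyme, epithelium and endothelium, it was highest in E14.5 mesenchyme, at 20.6 CPM (18.5 to 22.8), against 0.345 at E11.5 (0.193 to 0.569) and 2.21 at E16.5 (1.59 to 3.0). *Me3* was thus a mesenchymal RNA at E14.5 and higher in epithelium at E16.5, with epithelium at 0.119 of mesenchyme (0.0686 to 0.193) and then at 1.74 (1.17 to 2.62).

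**Figure D1:**
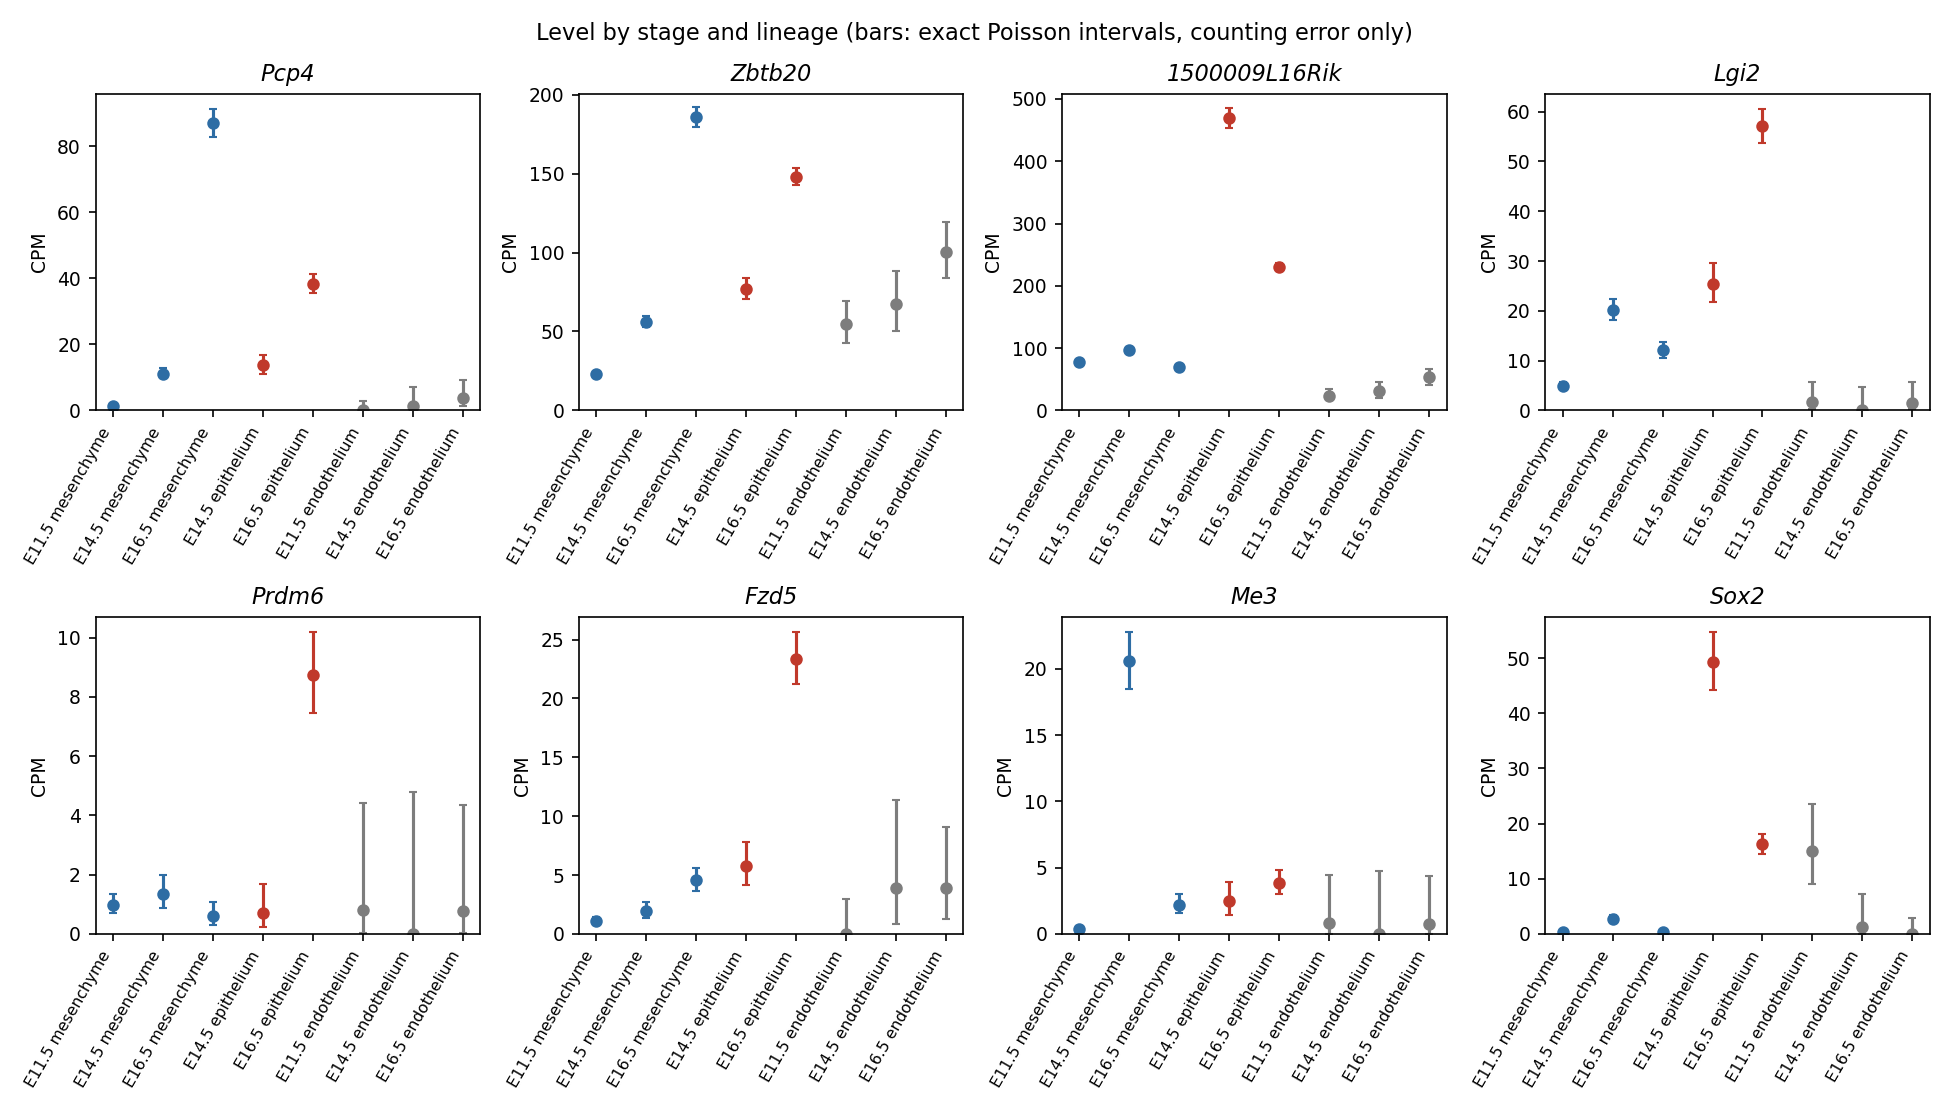
Level of each member and of *Sox2* in CPM (linear axes from 0, 1 panel per gene) in mesenchyme (blue), epithelium (red) and endothelium (grey) by stage, as points with exact Poisson intervals. *Pcp4* and *Zbtb20* are highest in E16.5 mesenchyme, *Me3* in E14.5 mesenchyme at 20.6 CPM, *1500009L16Rik* and *Sox2* in E14.5 epithelium, and *Lgi2*, *Prdm6* and *Fzd5* in E16.5 epithelium.

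Between the stages, 6 of the 7 genes had a higher CPM in E16.5 than in E14.5 epithelium, a direction for which they were chosen in part. The ratios were 12.2 for *Prdm6* (5.11 to 37.9), 4.06 for *Fzd5* (2.93 to 5.76), 2.80 for *Pcp4* (2.26 to 3.51), 2.24 for *Lgi2* (1.91 to 2.64) and 1.93 for *Zbtb20* (1.76 to 2.12). The ratio of *Me3*, 1.57 (0.918 to 2.85), was within counting error of 1. *Sox2* itself was at 49.2 CPM at E14.5 (44.2 to 54.7) and 16.2 at E16.5 (14.48 to 18.2), a ratio of 0.330 (0.282 to 0.386). A gene was called when its log2 ratio, with 10 CPM added to both sides, was at least 1, among genes with at least 50 UMIs over both groups. All 7 members passed this minimum, *Fzd5* (log2 1.08) and *Pcp4* (1.03) were called higher, and of 11654 genes 1.23% were called higher and 0.283% lower. The same rule called 3 members higher in epithelium than in mesenchyme at E16.5, *Lgi2* (log2 1.61), *1500009L16Rik* (1.60) and *Fzd5* (1.20), where 3.32% of 12681 genes were called higher and 4.14% lower. *Pcp4* was called lower there (-1.0). At E14.5 it called 1 member higher, *1500009L16Rik* (2.16), and 1 lower, *Me3* (-1.30), with 3.48% and 4.04% of 11549 genes called, and *Prdm6* did not pass the minimum.

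In mesenchyme, *Me3*, *Pcp4* and *Zbtb20* differed most between stages. From E11.5 to E14.5 the ratio was 59.6 for *Me3* (35.6 to 108), 8.97 for *Pcp4* (6.61 to 12.4), 4.08 for *Lgi2* (3.43 to 4.85) and 2.45 for *Zbtb20* (2.24 to 2.68). Of these, *Me3* (log2 1.56), *Lgi2* (1.01) and *Zbtb20* (1.01) were called higher, with 2.8% of 12779 genes called higher and 1.88% lower. From E14.5 to E16.5, *Pcp4* (7.80-fold, 6.73 to 9.09, log2 2.20) and *Zbtb20* (3.31-fold, 3.08 to 3.55, log2 1.56) were called higher and *Me3* (0.108-fold, 0.0760 to 0.149, log2 -1.32) lower, with 1.2% of 12243 genes called higher and 0.408% lower. The tissue sampled also differed between E11.5 and E14.5, from the whole mandible to the incisor bud.

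*Pcp4*, *Zbtb20* and *Me3* were each highest in a different mesenchymal cluster. *Pcp4* was at 202 CPM (190 to 215) in the E16.5 cluster of 854 cells led by *Sfrp4*, *Sfrp2* and *Postn*, and at 49.8 CPM in the next highest mesenchymal cluster. *Zbtb20* was highest in another E16.5 cluster, of 950 cells led by *Col8a1* and *Smoc2*, at 286 CPM (272 to 301). *Me3* was at 46.0 CPM (41.2 to 51.2) in the E14.5 cluster of 1248 cells led by *Inhba*, *Prrx2* and *Tril*, which held 331 of its 367 mesenchymal UMIs of that stage. This pattern was narrow, since *Me3* was at 8.42 CPM (4.60 to 14.1) in the next mesenchymal cluster. *Prdm6* was at 10.8 CPM (6.05 to 17.8) in the E14.5 cluster of 524 cells led by *Pax3*, *Osr1* and *Ebf1*, from 15 UMIs. *Lgi2* was at 46.8 CPM (36.1 to 59.7) in that same cluster, its highest mesenchymal level.

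The relation to *Sox2* within E14.5 epithelium was not itself part of the choice of genes, but the difference between the stages was in part. Epithelium of E14.5 held few UMIs of *Prdm6* (5), *Me3* (17) and *Fzd5* (40), so the lack of a call for these members says little. Of the 990 epithelial cells, 190 had a *Sox2* UMI (*Sox2*+ cells). These cells were deeper, with a median of 7810.5 UMIs against 3751 in the 800 *Sox2*- cells, and only ratios of CPM or shares at equal depth are therefore compared. Of the 7 members, 4 passed the minimum of 50 UMIs and 0 were called higher in *Sox2*+ cells, with 0.0822% of 8518 genes called higher and 0.141% lower. *Prdm6*, *Fzd5* and *Me3* did not pass the minimum. *Lgi2* was at 33.0 CPM in *Sox2*+ and 21.4 in *Sox2*- cells, a ratio of 1.54 (1.13 to 2.09). *1500009L16Rik* was at 563 and 418 CPM, a ratio of 1.35 (1.26 to 1.44). These were the only members whose interval lay above 1 at this stage before thinning. The ratio was 1.13 for *Zbtb20* (0.944 to 1.35), 0.843 for *Pcp4* (0.528 to 1.32), 1.22 for *Fzd5* (0.605 to 2.39) and 0.997 for *Me3* (0.303 to 2.94). *Prdm6* had 4 UMIs in *Sox2*+ and 1 in *Sox2*- cells. In cells thinned at random to 2000 UMIs each, *Zbtb20* and *1500009L16Rik* passed the minimum and 0 members were called, with 1.23% of 4136 genes called higher and 4.88% lower. The ratio of *1500009L16Rik* in these thinned cells was 0.956 (0.685 to 1.30) and that of *Lgi2* 1.26 (0.330 to 3.47), so neither interval lay above 1 there.

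At E16.5, where the genes were chosen, 135 of 1754 epithelial cells were *Sox2*+. Their median depth was 10813 UMIs against 6523 in the 1619 *Sox2*- cells. As a description of the choice, 6 of the 7 members were called higher, with 0.753% of 11155 genes called higher and 0.475% lower. *Pcp4* was at 188 CPM in *Sox2*+ and 15.4 in *Sox2*- cells, a ratio of 12.2 (10.4 to 14.2), which ranked 2 of 11155 after *Sox2* itself. The ratio was 8.53 for *Prdm6* (6.21 to 11.8), 6.71 for *Me3* (4.13 to 10.9), 5.45 for *1500009L16Rik* (5.13 to 5.78), 4.66 for *Zbtb20* (4.32 to 5.03) and 2.68 for *Lgi2* (2.34 to 3.06). *Me3* rested on 37 and 36 UMIs and stood just inside the limit (log2 1.02). *Fzd5*, at 44.5 and 20.1 CPM, had a ratio of 2.21 (1.77 to 2.75) and stood just outside it (log2 0.85). The number of *Sox2*+ cells with a UMI ranged from 25 for *Me3* to 112 for *1500009L16Rik*, and single cells held up to 142 UMIs of *Zbtb20* and up to 31 of *Pcp4*.

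To compare shares of cells at equal depth, each cell was thinned at random to 2000 UMIs, and 155 (E14.5) and 162 (E16.5) shallower epithelial cells were left out. *Sox2* was then found in 56 of 835 cells (E14.5) and in 37 of 1592 (E16.5). Cells that lost their *Sox2* UMI in thinning count as *Sox2*- in all comparisons of thinned cells. In the same thinned cells of E16.5, the log2 ratio of CPM was 2.56 for *Pcp4*, 2.29 for *1500009L16Rik*, 1.60 for *Lgi2* and 1.41 for *Zbtb20*, the 4 members called higher beside 4.2% of 6638 genes (13.4% lower). At E14.5 the intervals of *Sox2*+ and *Sox2*- cells overlapped for all 7 members, and of 14399 genes with a UMI 0.375% had separate intervals with the higher share in *Sox2*+ cells (0.822% of the 4136 genes with at least 50 UMIs). *1500009L16Rik* was found in 35.7% of *Sox2*+ cells (23.4 to 49.6) and 41.1% of *Sox2*- cells (37.6 to 44.6), and *Pcp4* in 1.79% (0.0452 to 9.55) and 2.44% (1.47 to 3.78). The direction for *Pcp4* rests on 1 *Sox2*+ cell with a UMI and was the reverse in most repeated draws, given below. For *1500009L16Rik*, neither the share nor the CPM ratio at equal depth thus showed the difference seen before thinning. The interval of its thinned CPM ratio (0.685 to 1.30) still overlapped that before thinning (1.26 to 1.44). The part of depth in the difference was not tested, since thinning also changed which cells were *Sox2*+. At E16.5 the intervals were separate for 3 members, a share of the members from which nothing is read, since they were chosen on these cells, and 0.73% of 15609 genes (1.24% of 6638 with at least 50 UMIs) had separate intervals in that direction. *1500009L16Rik* was found in 64.9% of *Sox2*+ cells (47.5 to 79.8) and 21.8% of *Sox2*- cells (19.8 to 23.9). *Pcp4* was found in 37.8% (22.5 to 55.2) and 5.92% (4.8 to 7.21), and *Lgi2* in 27.0% (13.8 to 44.1) and 7.4% (6.14 to 8.81). *Zbtb20*, in 32.4% (18.01 to 49.8) and 16.3% (14.53 to 18.3), had intervals that just overlapped.

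These shares can be set beside those of another lineage. Median depth before thinning was 6909 UMIs in endothelium of E16.5, against 6281 in *Sox2*+ and 7589 in *Sox2*- epithelial cells. In 136 endothelial cells at the same thinned depth, *Pcp4* and *Lgi2* were each found in 0.735% (0.0186 to 4.03). Their shares in *Sox2*- epithelial cells were above this endothelial share, which is not a measure of stray RNA. In E16.5 mesenchyme *Pcp4* was at 87.0 CPM. *1500009L16Rik* was found in 10.3% of the endothelial cells (5.74 to 16.7) and *Zbtb20* in 19.1% (12.9 to 26.7). The share of *Zbtb20* in *Sox2*- epithelial cells was thus not above that of endothelium. *Prdm6* and *Fzd5* were each found in 0.735% of the endothelial cells as well, and *Me3* in 0 of 136 (upper bound 2.68%). The cluster of 142 cells named endothelium at E16.5 had *Rgs5* among its leading genes. At a Leiden resolution of 0.8, 117 cells were named endothelium and 25 pericyte and smooth muscle, so the endothelial shares may include such cells.

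Few cells were *Sox2*+ after thinning, so the draw was repeated 20 times. At E16.5 the number of *Sox2*+ cells ranged from 32 to 50, and the number of members with separate intervals from 3 to 6 with a median of 4. At E14.5 that number was 0 in each of the 20 draws. The share of *Sox2*+ cells of E16.5 exceeded that of *Sox2*- cells in all 20 draws for *Pcp4*, *Zbtb20*, *1500009L16Rik* and *Lgi2*. For *Zbtb20* the median share was 43.3% against 16.1%, well above the single draw given first. For the rarer RNAs the direction was less regular, with *Sox2*+ cells above in 19 draws for *Prdm6* (median 5.27% against 1.36%), in 16 for *Me3* (2.50% against 0.581%) and in 14 for *Fzd5* (6.53% against 3.91%). The draws of E14.5 held 58 to 77 *Sox2*+ cells, against 56 in the single draw. There *Sox2*+ cells were above in 16 draws for *Pcp4* (median 3.67% against 2.07%), 14 for *Lgi2* and 13 for *Fzd5*. They were above in 6 draws for *Zbtb20*, 3 for *1500009L16Rik*, 2 for *Me3* and 1 for *Prdm6*.

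**Figure D2:**
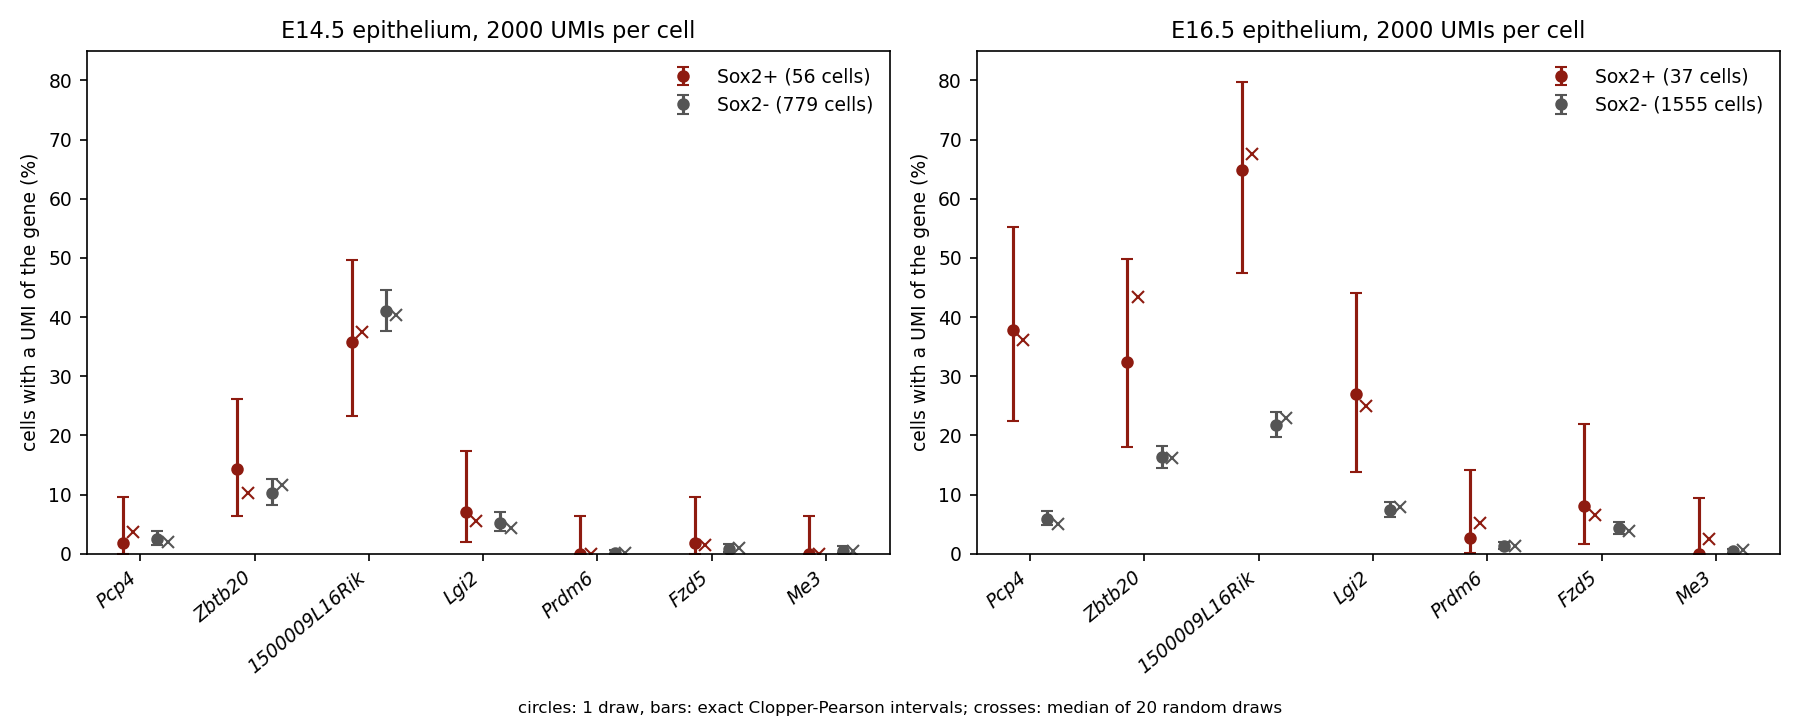
Share of epithelial cells with a UMI of each member (percent, from 0) among *Sox2*+ (red) and *Sox2*- (grey) cells thinned to 2000 UMIs, at E14.5 (left) and E16.5 (right), as circles with Clopper-Pearson intervals for 1 draw and crosses for the median of 20 draws. At E14.5 the red and grey points lie together, and at E16.5 *1500009L16Rik* is found in 64.9% of *Sox2*+ and 21.8% of *Sox2*- cells.

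Markers of other cell types were summed over the same thinned cells of E16.5. The 9 mesenchymal markers summed to 459 CPM in *Sox2*+ cells (318 to 642) and 219 in *Sox2*- cells (203 to 236), and 4 of the 9 (*Twist1*, *Msx1*, *Lum* and *Postn*) were at 0 in *Sox2*+ cells. Of the 34 UMIs, 17 came from 1 cell, and without it the sum was 236 CPM (138 to 378). The mesenchymal list was also higher in cells with an *Lgi2* UMI, at 360 CPM (289 to 443) against 213 in those without (196 to 230), and its part in the result for *Lgi2* was not tested. In cells with a *Pcp4* UMI it was 278 CPM (212 to 359) against 220 (204 to 238). The immune, endothelial and muscle lists were at 0 in *Sox2*+ cells, and the erythroid list was at 203 CPM in *Sox2*+ (113 to 334) and 277 in *Sox2*- cells.

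The members were also found with one another in single cells at E16.5, which is a description too, since all 7 were chosen on these cells. Of the 21 pairs of members, 14 were found in the same thinned cell more often than their separate shares predict, with an interval above 1. Over all pairs of genes with a UMI this held for 0.893%, and over all pairs of genes with at least 50 UMIs for 1.47%. At E14.5 it held for 0 of the 21 pairs of members, beside 0.754% and 1.07% of all pairs. Nothing is read from this 0, since *Prdm6* was found in 1, *Me3* in 4, *Fzd5* in 7 and *Pcp4* in 20 of 835 cells there. *Pcp4* and *Prdm6* were found together in 11 cells where 1.40 were expected, a ratio of 7.87 (3.93 to 14.1). The ratio was 3.34 for *1500009L16Rik* and *Prdm6* in 16 cells (1.91 to 5.43), 2.85 for *Pcp4* and *1500009L16Rik* in 69 cells (2.22 to 3.61) and 2.11 for *Zbtb20* and *Lgi2* in 44 cells (1.53 to 2.83). The most abundant pair, *Zbtb20* and *1500009L16Rik*, was found in 101 cells where 60.7 were expected, a ratio of 1.67 (1.36 to 2.02). None of the 6 pairs with *Me3* had an interval above 1, and *Me3* was found in only 6 cells. At E14.5 the same pair of *Zbtb20* and *1500009L16Rik* had a ratio of 1.31 (0.964 to 1.74), and *1500009L16Rik* and *Lgi2* had 0.655 (0.338 to 1.14), against 1.54 (1.12 to 2.07) at E16.5.

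**Figure D3:**
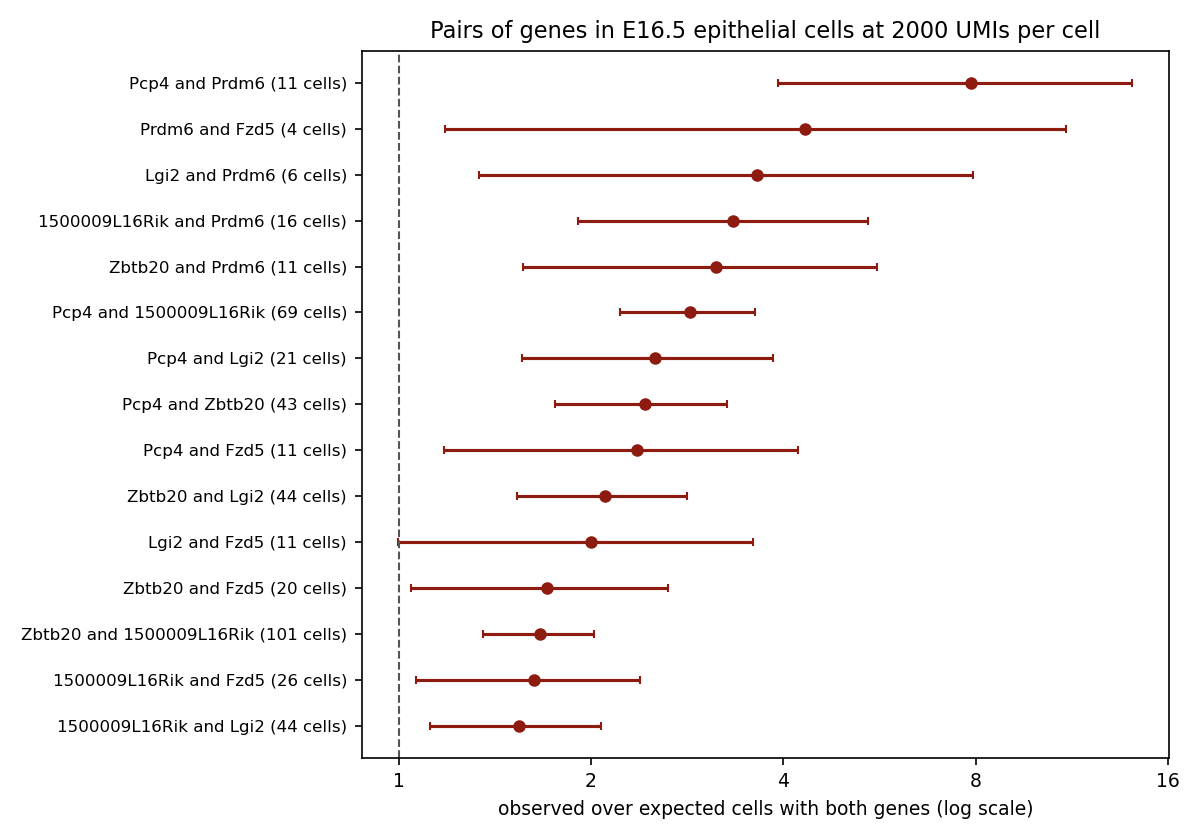
Number of E16.5 epithelial cells with both genes of a pair over the number expected from their separate shares (log axis, dashed line at 1), at 2000 UMIs per cell, for the 15 pairs of members without *Me3*. Points are ratios with exact Poisson intervals, and all intervals but that of *Lgi2* and *Fzd5* lie above 1, from 1.54 for *1500009L16Rik* and *Lgi2* to 7.87 for *Pcp4* and *Prdm6*.

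The share of *Sox2*+ cells was also described by the number of members per cell, at E16.5 in the cells on which the members were chosen. No member was found in 945 of the 1592 thinned cells (59.4%), of which 0.847% were *Sox2*+ (0.366 to 1.66). With 1 member the share was 1.59% of 439 cells (0.643 to 3.26) and with 2 it was 10.3% of 136 cells (5.74 to 16.7). It was 6.67% of 45 cells with 3 members (1.40 to 18.3) and 18.5% of 27 cells with 4 or more (6.30 to 38.1). The intervals of the cells with 2, 3 and 4 or more members overlapped. At E14.5 the share was 6.76% of 414 cells without a member (4.54 to 9.63), 6.45% of 341 with 1 (4.09 to 9.61) and 7.89% of 76 with 2 (2.95 to 16.4). Only 4 cells of E14.5 had 3 members and none had more.

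When the epithelial cells of E16.5 were clustered again, without the 7 members, *Sox2* and the other genes of the lists among the variable genes, the members were high in 1 small cluster. This too describes the choice, since the members were chosen on *Sox2*-rich cells of this stage. Leaving them out of the variable genes does not undo that. At a Leiden resolution of 0.8, chosen after the data were seen, the cluster held 137 cells with a median of 8125 UMIs. It was led by *Crabp1*, *Egfl6*, *Fez1*, *Cldn10*, *Spon1* and *Pthlh*. *Sox2* was at 91.6 CPM there (78.5 to 106), and 63 of the 135 *Sox2*+ cells were in it. *Pcp4* was at 243 CPM (221 to 266), against 2.90 to 75.7 in the 7 other clusters. *Zbtb20* was at 596 CPM (562 to 632) against 70.1 to 210.3, and *1500009L16Rik* at 1153 CPM (1106 to 1203) against 32.7 to 309. The gap was widest for *Prdm6*, at 69.5 CPM (58.1 to 82.4) against 0 to 5.63. *Me3* was at 19.5 CPM (13.7 to 26.8) against 0.791 to 8.0, and *Fzd5* at 63.7 CPM (52.8 to 76.1), where another cluster of 239 cells reached 47.2 (35.9 to 60.9). *Lgi2* was the exception, at 162 CPM (144 to 181) and thus below the 178 CPM (161 to 196) of a cluster of 199 cells led by *Chchd10*, *Ppargc1a* and *Krt15* in which *Sox2* was at 5.04 CPM (2.60 to 8.80).

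By count, 6 of the 7 members were highest in the cluster with the highest *Sox2* level at this resolution, where 11% of 11155 genes were highest in it. Nothing is read from this count or from those at other resolutions, since the members were chosen on these cells. At the resolution of 0.4 used for the other clusters, the 137 cells lay within larger clusters, and all 7 members were highest in the cluster richest in *Sox2* (560 cells led by *Pthlh* and *Slc12a2*, *Sox2* at 42.9 CPM), as were 39.1% of the genes. At 0.2 there were 2 clusters, and 4 of the 7 members were highest in the one richer in *Sox2*, which is close to the 60.8% of all genes. In the cluster of 137 cells the erythroid list was at 313 CPM (288 to 339), within the range of 196 to 325 in the others, and the mesenchymal list at 223 CPM (202 to 245), within 82.3 to 678. The highest value of the latter was that of a cluster of 261 cells led by *Prrx2*, *Col3a1* and other mesenchymal genes, which was named epithelium with the rest and in which *Pcp4* was at 75.7 CPM (62.8 to 90.5). The part of mesenchymal RNA in that value was not tested. A cluster of 239 cells, with a median of 2614 UMIs and 11.2% mitochondrial UMIs, had *Sox2* at 44.8 CPM (33.8 to 58.2) with *Pcp4* at 39.2 and *Prdm6* at 4.8.

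**Figure D4:**
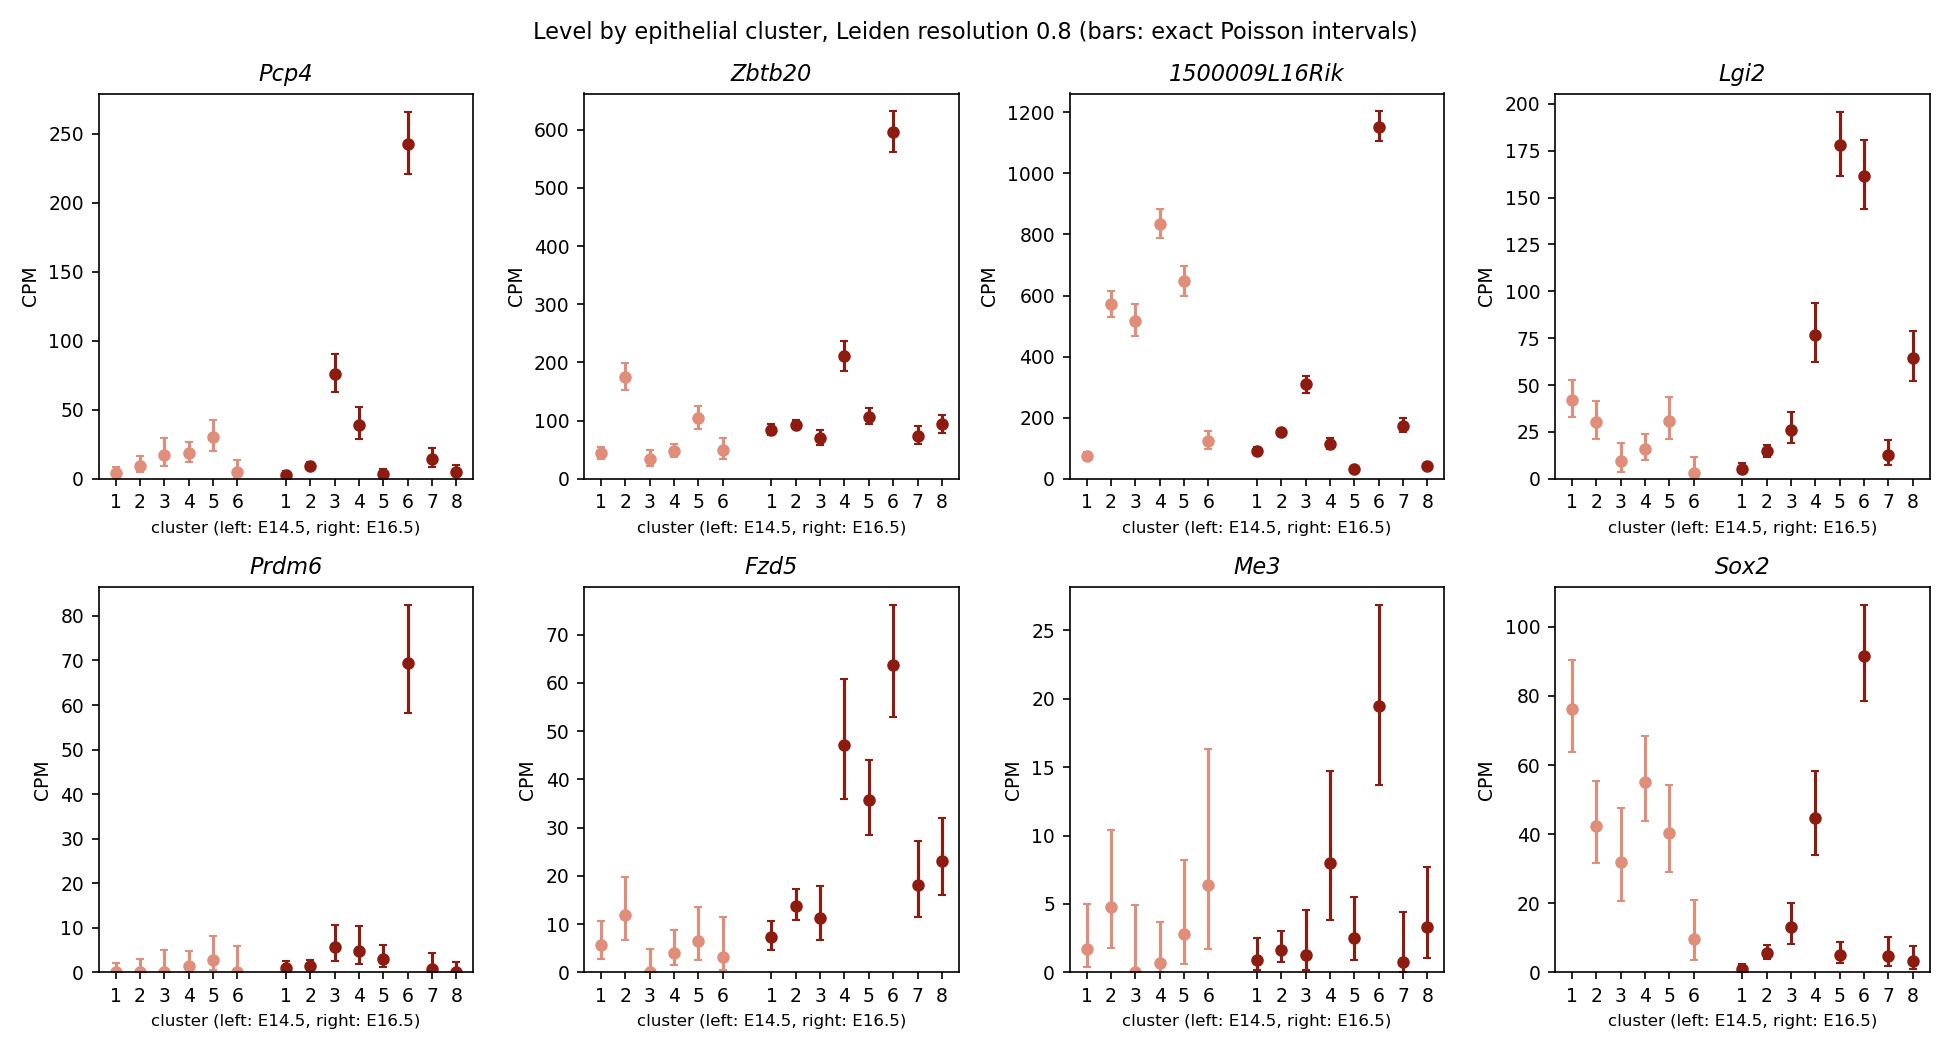
Level of each member and of *Sox2* in CPM (linear axes from 0) by epithelial cluster at a Leiden resolution of 0.8, with 6 clusters of E14.5 (light red) and 8 of E16.5 (dark red), as points with exact Poisson intervals. Cluster 6 of E16.5, of 137 cells, is highest for every gene but *Lgi2*, whose highest level is 178 CPM in cluster 5.

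In E14.5 epithelium the members were not all highest in 1 cluster. At a resolution of 0.4, the cluster with the highest *Sox2* level, 74.2 CPM (62.2 to 87.9), held 268 cells and was led by *Krt15*, *Meis2* and *Igfbp5*, and of the members only *Lgi2* was highest there, at 40.4 CPM (31.7 to 50.8), where 12.8% of 8518 genes were highest in it. *1500009L16Rik* was highest in a cluster of 361 cells led by *Crabp1*, *Krt18* and *Scx*, at 730 CPM (699 to 762), and was at 73.1 CPM (61.2 to 86.7) in the *Sox2*-richest one. *Pcp4* was at 20.9 CPM (15.99 to 26.8) in the same cluster of 361 cells and at 15 (9.63 to 22.4) in the next. *Zbtb20* was highest in a cluster of 283 cells led by mitochondrial genes, at 169 CPM (149 to 190), with a median of 6.39% mitochondrial UMIs, and *Fzd5* was highest there too, at 11.3 CPM (6.68 to 17.8). The part of cell quality in these values was not tested. *Prdm6* and *Me3* had at most 8 UMIs in any E14.5 cluster. Finer and coarser clusters gave a like count, with 1 member highest in the *Sox2*-richest cluster at 0.8 (9.22% of genes) and 2 at 0.2 (28%).

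Within the E16.5 cluster of 137 cells, the intervals of *Sox2*+ and *Sox2*- cells overlapped for all 7 members at equal depth. After thinning, 134 cells of the cluster remained, 18 of them *Sox2*+. Before thinning 63 of the 137 cells had a *Sox2* UMI, so many of the *Sox2*- cells had lost theirs. The comparison therefore cannot tell whether the 2 groups carried the members alike. *Pcp4* was found in 50% of the 18 (26.0 to 74.0) and 37.9% of the 116 *Sox2*- cells (29.1 to 47.4). *1500009L16Rik* was found in 94.4% (72.7 to 99.9) and 78.4% (69.9 to 85.5), and *Zbtb20* in 55.6% (30.8 to 78.5) and 50.9% (41.4 to 60.3). *Lgi2*, *Fzd5*, *Prdm6* and *Me3* likewise had overlapping intervals, which are wide with 18 cells. Of the 134 cells, 74.6% had at least 2 members and 4.48% had none, against 7.41% and 64.4% of the 1458 other epithelial cells. The cluster held 17 of the 21 thinned cells with *Prdm6* and 4 of the 6 with *Me3*.

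Outside that cluster, 1 member had separate intervals between *Sox2*+ and *Sox2*- cells, as 0.402% of 15404 genes with a UMI did (0.536% of 6341 with at least 50 UMIs). *Pcp4* was found in 5 of 19 *Sox2*+ cells, 26.3% (9.15 to 51.2), and 3.34% of 1439 *Sox2*- cells (2.47 to 4.40). The shares were 36.8% (16.3 to 61.6) and 17.2% (15.3 to 19.3) for *1500009L16Rik* and 21.1% (6.05 to 45.6) and 5.84% (4.68 to 7.18) for *Lgi2*, with overlapping intervals. *Zbtb20* was found in 2 of the 19 cells, 10.5% (1.30 to 33.1), and 13.6% of the others (11.8 to 15.4). *Prdm6* and *Me3* were each found in 0 of the 19 (upper bound 17.6%). Of the 5 *Sox2*+ cells with *Pcp4*, 2 lay in the cluster of 239 cells with 11.2% mitochondrial UMIs and 2 in one of 334 cells led by *Prc1* and *Nusap1*. The remaining 1 lay in the cluster of 261 cells led by *Prrx2* and *Col3a1*, which also held 3 of the 4 with *Lgi2*. The part of cell quality or mesenchymal RNA in these shares was not tested. Outside the *Sox2*-richest cluster at a resolution of 0.4, 2 members had separate intervals, beside 0.372% of 14791 genes with a UMI (0.455% of 5275 with at least 50 UMIs). There *Pcp4* was found in 26.7% of 15 *Sox2*+ cells (7.79 to 55.1) and 3.35% of 1103 *Sox2*- cells (2.37 to 4.59), and *Lgi2* in 26.7% (7.79 to 55.1) and 2.81% (1.92 to 3.97). At E14.5, outside the *Sox2*-richest cluster, 0 members had separate intervals, beside 0.249% of genes with a UMI and 0.312% of those with at least 50 UMIs at a resolution of 0.8, and 0.264% and 0.345% at 0.4. These shares come from the single draw, and those of E16.5 from cells on which the members were chosen.

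Relatives and partners of the members were taken as lists by family. Of the 10 Frizzled genes, 5 were higher in E16.5 than in E14.5 epithelium by separate intervals (*Fzd3*, *Fzd5*, *Fzd6*, *Fzd7* and *Fzd10*) and 1 was lower, *Fzd1*, at 38.3 CPM (33.8 to 43.2) and then 22.1 (20.03 to 24.3). Of all genes with a UMI, 16.8% were higher and 7.55% lower by this rule, and of those with at least 50 UMIs 27.1% and 11.4%. *Fzd6* was at 11.7 CPM (9.26 to 14.49) and then at 28.0 (25.6 to 30.4), and like *Fzd5* it was low in mesenchyme, at 0.840 and 2.86 CPM. Of the other LGI genes, *Lgi1*, *Lgi3* and *Lgi4* had 9, 6 and 8 UMIs in E16.5 epithelium, where *Lgi2* had 1083. *Adam22*, which encodes a receptor of LGI proteins, was at 3.27 CPM in E16.5 epithelium (2.51 to 4.19) and 14 in mesenchyme (12.4 to 15.9). *Adam23*, its relative, was at 1.90 CPM (1.33 to 2.63) and 3.73 (2.90 to 4.71), so both RNAs were higher in mesenchyme than in the epithelium that carried *Lgi2*.

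The other 2 malic enzyme genes did not share the pattern of *Me3*. *Me1*, for the cytosolic enzyme, was at 16 CPM in E14.5 epithelium (13.1 to 19.2) and 44.0 in E16.5 epithelium (41.1 to 47.1), and in mesenchyme at 14.2 and 35.4 CPM. *Me2* was at 30.5 CPM (26.6 to 34.9) and 74.3 (70.4 to 78.2) in epithelium and at 29.3 and 64.2 in mesenchyme. Both were thus higher at E16.5 in both lineages, where *Me3* was lower in mesenchyme. *Pcp4l1*, the relative of *Pcp4*, had 1 UMI in E14.5 and 3 UMIs in E16.5 epithelium. Of the 9 PRDM genes in the list, which is not the whole family, *Prdm6* was the only one higher in E16.5 than in E14.5 epithelium by separate intervals. The members were chosen in part for this contrast. *Prdm16*, at 1.58 and 3.53 CPM in epithelium, was mainly mesenchymal at 14.45 and 28.0 CPM. Of the 6 BTB zinc finger genes in the list, likewise a part of their family, *Zbtb20* and *Zbtb7a* were higher in E16.5 epithelium by separate intervals. By this rule 16.8% of all genes with a UMI were higher, and 27.1% of those with at least 50 UMIs. Nothing is therefore read from the counts of the PRDM and BTB lists. *Zbtb7a* was at 38.6 CPM (35.8 to 41.4) after 26.9 (23.2 to 31.1).

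Among genes known from the incisor stem cell niche, *Crabp1* and *Cldn10* were found in a higher share of *Sox2*+ than of *Sox2*- cells of E16.5 by separate intervals, as *Pcp4*, *1500009L16Rik* and *Lgi2* were. *Crabp1*, which encodes a retinoic acid binding protein, was found in 45.9% (29.5 to 63.1) and 11.1% (9.60 to 12.8), and *Cldn10*, for a claudin of tight junctions, in 40.5% (24.8 to 57.9) and 8.30% (6.97 to 9.78). *Crabp1* and *Cldn10* also led the cluster of 137 cells, at 470 and 390 CPM. *Igfbp5* was found in a lower share of *Sox2*+ cells, 29.7% (15.9 to 47.0) against 52.8% (50.3 to 55.3), and at 163 CPM it was lower in that cluster than in the other 7 (201 to 1616). At E14.5 the intervals overlapped for each of these 3 genes.

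Cells with and without a member were compared by their sum of cell cycle genes, with intervals that do not cover spread between cells. In E16.5 epithelial cells at equal depth, 10 genes of the cell cycle summed to 2991 CPM in the 106 cells with a *Pcp4* UMI (2762 to 3233) and 2097 in those without (2046 to 2150). With *1500009L16Rik* the sum was 2763 CPM (2643 to 2887) against 1978 (1922 to 2034). With *Zbtb20* it was 2361 CPM (2232 to 2495) against 2116 (2061 to 2172). *Lgi2* went the other way, at 1464 CPM (1318 to 1622) against 2216 (2162 to 2270). For *Prdm6*, *Fzd5* and *Me3* the values were 2262 against 2155, 2386 against 2146 and 1250 against 2160 CPM, of which only that of *Me3*, in 6 cells, had separate intervals. At E14.5 *1500009L16Rik* again went with a higher sum, 2571 CPM (2451 to 2694) against 2048 (1960 to 2140), as did *Zbtb20*, 2756 (2516 to 3012) against 2203 (2128 to 2279). *Pcp4*, in 20 cells, had overlapping intervals at E14.5, at 1875 (1475 to 2350) against 2271 (2198 to 2345), and so had *Lgi2*, at 2511 (2194 to 2861) against 2247 (2174 to 2322). The other members were found in 7 cells or fewer there, and of these *Me3*, in 4 cells, had separate intervals, at 375 CPM (77.3 to 1096) against 2270.2 (2198 to 2344). With *Sox2* the sum was 3018 CPM (2705 to 3357) against 2207 (2134 to 2282) at E14.5. At E16.5 it was 2500 CPM (2153 to 2887) against 2149 (2097 to 2201), with overlapping intervals. The share of all genes with separate intervals by this rule was not computed, so nothing is read from the number of members. The part of the cell cycle in the members' levels was not tested.

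Over 20 groups of cells (stage by lineage, with epithelium split into its clusters at a resolution of 0.4), the members were compared with one another, with *Sox2* and with all other genes. Likeness was Pearson's r of log2(CPM + 10), a description in which all groups of a stage share a library and which includes the E16.5 cells on which the members were chosen. Among pairs of members, r ranged from 0.155 for *Fzd5* and *Me3* to 0.764 for *Pcp4* and *Zbtb20*, and with *Sox2* from 0.143 for *Fzd5* to 0.594 for *Lgi2*. Of 12157 genes, the one most like *Pcp4* was *Kazald1* (0.907), followed by *Lypd1* (0.882) and *Adamts3* (0.879). *Zbtb20* was most like *Lztfl1* (0.886), *Purb* (0.884) and *Appl1* (0.883), and *1500009L16Rik* was most like *Acaa1b* (0.895), *Sema3e* (0.892) and *Mtmr7* (0.891). For *Lgi2* the genes were *Notch2* (0.878), *Arhgap24* (0.872) and *Tpbg* (0.870). *Slco4a1*, which encodes an organic anion transporter, was the likest gene of both *Prdm6* (0.863) and *Fzd5* (0.857), and it was highest, as they were, in the *Sox2*-richest E16.5 cluster of 560 cells. *Me3* was most like *A830012C17Rik* (0.844), *Ctnna2* (0.826) and *Tnc* (0.808), all highest in E14.5 mesenchyme.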

How the data were processed

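Wild type mouse mandibles (E11.5) and lower incisor buds (E14.5, E16.5) were dissociated and profiled with the 10x 3' v3 kit. The deposited values are UMI counts per gene and barcode, which the authors made with Cell Ranger 4.0.0 on mm10, per the submitters' processing notes, as 1 matrix per stage before their filter on cells. From 864 to 123785 UMIs per kept cell lay behind the values. The members and gene lists were chosen with earlier results of these data known. Cells were kept at 700 or more genes and no more than 20% mitochondrial UMIs. Normalization was by SCTransform with a regression on 2000 cells (Seurat 5.3.0, sctransform 0.4.2), and the first 20 principal components (2000 variable genes) entered Leiden clustering at 0.4 (leidenbase 0.1.32, R 4.3.3). The 7 members and the other genes of the lists, 57 in all, were left out of the variable genes. Clusters were named from marker lists. The naming rule was revised after the data were seen: cells with over 1% of UMIs from erythroid markers were set aside (249, 159 and 76 cells), and a class needed a score of at least 0.2 over markers that reached 50 CPM, 3 markers found in at least 5% of cells, and no more markers of any other class than of its own among its 10 leading genes. Epithelial cells of each stage were clustered again in the same way. Scrublet (scanpy 1.11.5) called 0, 0 and 2 doublets and was not used to remove cells. *Sox2*+ means at least 1 *Sox2* UMI. CPM, thinning (seed 7), intervals and ratios came from python 3.11.15 (numpy 2.4.6, scipy 1.17.1, pandas 2.3.3) and were drawn with matplotlib 3.10.9. Ratios and their intervals were checked on simulated independent Poisson counts, which the intervals assume, so spread between cells was not checked. Named genes were the members, *Sox2*, the genes of the lists, the leading genes of clusters and the 3 genes most like each member among those with at least 200 UMIs. Alternatives varied the cell filter, the definition of epithelium, the resolution, the added CPM, the *Sox2* threshold and the thinned depth. No column of values was left unused. E11.5 epithelium was not analysed beyond its 11 cells. Some results for genes of the lists are not reported here.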

Additional observations from a re-analysis of the deposited data

Results flagged for a closer look

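Of 21 contrasts compared between stages or lineages, 4 members had ratios of CPM on opposite sides of 1, each with an interval that left out 1, and the difference itself was not tested since each stage is 1 sample. The share of all genes that meet this rule was not computed, so nothing is read from the number of members. The contrast of E16.5 and E14.5 epithelium, given for *Lgi2* and *Prdm6*, was also part of the choice of genes. *Zbtb20* stood above mesenchyme in E14.5 epithelium, at a ratio of 1.37 (1.23 to 1.52), and below it at E16.5, at 0.797 (0.758 to 0.838). *Me3* changed sides the other way, from 0.119 (0.0686 to 0.193) at E14.5 to 1.74 (1.17 to 2.62) at E16.5. From E14.5 to E16.5, *Lgi2* had a ratio of 2.24 in epithelium (1.91 to 2.64) and 0.597 in mesenchyme (0.503 to 0.707). *Prdm6* had a ratio of 12.2 in epithelium (5.11 to 37.9), from 5 UMIs at E14.5, and 0.442 in mesenchyme (0.195 to 0.937), from 24 and 11 UMIs.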

How the results depend on the processing

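No paired analysis was possible because nothing ties a barcode to one of the labelled samples. No sample could be left out for the same reason. The thinning of CPM ratios, the 20 draws, the globin-rich cells kept and the finer and coarser epithelial clusters were chosen after seeing the data. The number of genes called higher in *Sox2*+ cells (7 for E14.5, 84 for E16.5) was 25 and 223 with 1 CPM added, 1 and 23 with 50 CPM, 20 and 143 with *Sox2*+ set at 2 UMIs or more, and 51 and 279 in thinned cells. Of the members, *Prdm6* (4 and 1 UMIs) reached the log2 limit at E14.5 with 1 CPM added. It did not pass the minimum of 50 UMIs and was thus not called. At E16.5, 3 members in place of 6 were called with 50 CPM. Genes called higher in E16.5 than in E14.5 epithelium, 143, were 598 with 1 CPM and 28 with 50 CPM. Members with separate intervals numbered 4 in place of 0 at E14.5 without thinning, where *Sox2*+ cells were deeper (median of 7810.5 UMIs against 3751). At E16.5 they numbered 7 in place of 3 without thinning and 5 at 4000 UMIs. With the filter set to 1000 genes and 10% mitochondrial UMIs they numbered 6. They numbered 5 with another random seed and at a resolution of 0.2. At that resolution epithelium of E16.5 again held 1754 cells, 135 of them *Sox2*+, as in the main setting. The 20 draws in the main setting gave 3 to 6. The counts with this filter, seed and resolution lie within that range, so a change of setting cannot be told from a new draw there. At 1000 UMIs, 9 pairs in place of 14 were above 1. The share of all genes or pairs was not computed for these settings, so nothing is read from these counts of members and pairs. At a resolution of 0.2, the members highest in the *Sox2*-richest cluster were 2 at E14.5 and 4 at E16.5, in place of 1 and 7. The log2 ratio of *Me3* between *Sox2*+ and *Sox2*- cells of E16.5 reversed to -0.25 in thinned cells, where *Me3* had 0 and 6 UMIs. The cause of these shifts was not tested. Over the alternatives listed at the start, 61 counts stayed within 1.5 times of the value given and 17 did not, and 467 values of single genes moved by less than counting error and 93 by more. Shares in the 37 thinned *Sox2*+ cells are limited by their number, and *Prdm6* and *Me3* by their few UMIs.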
